A study of Homo sapiens with 12 samples.

Results

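PKM, LDHA, LDHB, SLC16A1, SLC16A3, MPC1 and MPC2 make pyruvate, interconvert it with lactate, move lactate across the plasma membrane and carry pyruvate into mitochondria. The 7 genes were chosen by name for these roles, and all 7 are among the 25369 genes of the deposited table and passed the filter on low counts in every cell line. Their mRNA was measured by poly(A)+ RNA-seq in 12 libraries from 3 established cancer cell lines: RKO, a colon carcinoma line, A549, a lung adenocarcinoma line, and H460, a large cell lung carcinoma line. Each line was kept in normoxia or in hypoxia (1% O2, 24 h), with 2 independent biological replicates in each of the 6 groups. No group carried a genetic change made for the experiment, and each line derives from 1 tumour, so line and tumour type cannot be told apart. RKO and A549 cells were grown in DMEM and H460 cells in RPMI, so for H460 the line and the medium cannot be told apart. Which members respond to low oxygen, and whether the lines respond alike, are the questions that the design addresses.

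Glycolysis ends at pyruvate kinase, which turns phosphoenolpyruvate into pyruvate. Lactate dehydrogenase, a tetramer of A and B subunits, reduces pyruvate to lactate and regenerates the NAD+ that glycolysis needs. Tetramers of the A subunit are typical of tissues that work without much oxygen, and tetramers of the B subunit of tissues that oxidise lactate, such as heart. Lactate crosses the plasma membrane with a proton through monocarboxylate transporters, among them MCT1 (SLC16A1) and MCT4 (SLC16A3), while MPC1 and MPC2 form the mitochondrial pyruvate carrier. Hypoxia-inducible factors are known to bind ACGTG, a form of their core sequence, near many genes of glycolysis, LDHA among the classical examples.

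The promoter windows below are shown because LDHA and SLC16A3 are the genes that were higher in hypoxia in all 3 lines, and LDHB is the partner of LDHA in the same enzyme. Each window runs from 250 bases before to 50 bases after an annotated start in RefSeq (GRCh38.p14), 5′ to 3′ on the gene's strand, and capitals mark every match to ACGTG or to its reverse complement CACGT. The LDHA window is chr11:18394313-18394612 on the plus strand, the SLC16A3 window is chr17:82228792-82229091 on the plus strand, and the LDHB window is chr12:21657793-21658092 on the minus strand.
LDHA: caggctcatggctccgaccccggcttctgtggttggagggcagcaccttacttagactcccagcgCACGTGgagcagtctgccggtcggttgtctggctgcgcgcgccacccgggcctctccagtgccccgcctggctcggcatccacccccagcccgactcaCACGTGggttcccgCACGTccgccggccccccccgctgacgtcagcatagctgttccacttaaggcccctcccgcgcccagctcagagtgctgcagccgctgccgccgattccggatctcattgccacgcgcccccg
SLC16A3: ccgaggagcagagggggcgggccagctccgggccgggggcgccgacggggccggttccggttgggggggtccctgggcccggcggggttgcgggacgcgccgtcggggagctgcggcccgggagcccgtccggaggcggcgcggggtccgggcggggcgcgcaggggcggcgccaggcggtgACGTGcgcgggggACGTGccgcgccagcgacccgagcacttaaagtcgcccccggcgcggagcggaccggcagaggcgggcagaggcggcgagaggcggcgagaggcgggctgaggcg
LDHB: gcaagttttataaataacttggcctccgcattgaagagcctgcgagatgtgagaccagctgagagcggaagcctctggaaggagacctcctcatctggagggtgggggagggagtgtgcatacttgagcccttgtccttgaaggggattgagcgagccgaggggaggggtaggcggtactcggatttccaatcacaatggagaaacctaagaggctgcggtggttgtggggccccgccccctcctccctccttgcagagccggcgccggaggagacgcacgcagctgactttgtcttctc
The LDHA window held 5 matches, 2 on the gene's strand and 3 on the other, and 4 of these lie in 2 copies of the palindrome CACGTG, which counts once on each strand. Their first bases stand at -185, -184, -87, -86 and -73 from the start. The SLC16A3 window, from the second of 5 annotated starts, held 2 matches on the gene's strand, at -68 and -55, and the windows of its other 4 starts held none. A second LDHA start and the windows of PKM, LDHB, MPC1 and MPC2 held none either. Among all 35116 promoter windows of this length, 21.4% held at least 1 match and 8.82% held at least 2. These are shares of single windows, and LDHA and SLC16A3 had several windows each. The share for genes with several windows was not computed. SLC16A1 was not matched to a window. Other forms of the core were not searched, so a window without a match is not shown to lack a binding site. A match is a description of the letters in the window, and its use by any factor was not tested.

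All libraries held between 27350424 and 41757584 counted reads. The 3 hypoxia markers CA9, NDRG1 and ANKRD37, summed as RPKM after TMM scaling, were between 7.70 and 36.9 in the 6 normoxia libraries and between 322 and 660.1 in the 6 hypoxia libraries, so each library matched its label. Both ends of the hypoxia range, 322 and 660.1, were the A549 hypoxia replicates. ANKRD37 alone did not pass in A549 (log2 fold change 1.86, adjusted p = 0.111 in edgeR). In H460 the TMM factors of the hypoxia libraries were 0.786 and 0.829 against 0.963 to 1.12 in the other 10 libraries. Scaling by library size alone moved the median log2 fold change of all genes by -0.35 in H460, by -0.09 in A549 and by 0.08 in RKO. Log2 fold changes below are relative to the TMM scale unless another is named. Ranks, from the deposited RPKM, and shares of counted reads use no TMM factor. Defining markers were sparse: in RKO the colon markers CDX1 and VIL1 were at 0 reads with CDX2 present. KRT20, CDH17 and LGALS4 were at most 0.0417 RPKM in RKO, while CDH17 and LGALS4 reached 0.658 and 1.14 RPKM in A549. The colon list summed to between 4.01 and 6.61 RPKM in RKO, between 1.04 and 1.63 RPKM in A549 and at most 0.159 RPKM in H460. In both lung lines the surfactant gene SFTPA1 was at 0 reads. The lung list summed to between 2.45 and 3.65 RPKM in A549, mostly NAPSA, and in H460 to between 0.334 and 0.509 RPKM in normoxia and between 1.86 and 1.88 RPKM in hypoxia, where NKX2-1 was counted 87 and 98 times against 2 and 0 times. Among markers of other cell types, CD3E was at 0 reads in every library, the leukocyte list with it summed to at most 7.19 RPKM, with CD14 in H460 at 7.19 and 5.97 RPKM in normoxia and 3.06 and 3.04 RPKM in hypoxia, the endothelial pair PECAM1 and CDH5 to at most 0.0478 RPKM, and the fibroblast list summed to at most 14.1 RPKM in normoxia. In A549 the fibroblast sum was 21.9 and 72.6 RPKM in hypoxia, through COL1A1 with COL3A1 near 0, and its part in the results was not tested. Epithelial markers moved with oxygen in RKO, from between 119 and 126 to between 65.4 and 67.5 RPKM, and in the opposite direction in H460, from between 1033 and 1108 to between 1449 and 1571 RPKM. Each sum followed 1 keratin gene. In RKO KRT18 fell by 1.05 on the log2 scale, while KRT8 was at 0.31 and EPCAM at 0.13. KRT19 was at -0.68 in RKO, not called and at most 0.904 RPKM. In H460 KRT19 rose by 1.22, while KRT8 was at -0.46 and KRT18 at -0.17. CDH1 in H460 was at 0.13 but near the floor, at most 0.130 RPKM. EPCAM in H460 (at most 0.290 RPKM) and CDH1 in RKO (at most 0.0221 RPKM) were below the filter. The part of these shifts in the results was not tested. In bulk RNA, fewer cells of a type and less RNA per cell cannot be told apart.

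The members covered a wide range of levels. Levels are given as TMM-scaled RPKM, that is, counts divided by gene length and by the TMM-scaled library size, which allows genes to be compared with each other. PKM, LDHA and LDHB were among the most abundant mRNAs, with normoxia ranks between 46 and 134 of the 25369 genes in the 3 lines. SLC16A3 ranked between 359 and 1778, SLC16A1 between 1060 and 3400, MPC2 between 3599 and 5251 and MPC1 between 4741 and 9789. In hypoxia LDHA moved from rank 112 to 67 in RKO, from 78 to 26 in A549 and from 115 to 68 in H460. By the mean of the 2 replicates it then ranked above PKM in all 3 lines. In RKO hypoxia replicate 1 alone, PKM was at 763.9 deposited RPKM against 762.4 for LDHA. The 7 genes together took 0.491% and 0.540% of the counted reads in the RKO normoxia libraries, against 0.562% and 0.563% in hypoxia. The same share was 0.534% and 0.634% in A549 normoxia against 0.911% and 0.955% in hypoxia, and 0.407% and 0.448% in H460 normoxia against 0.539% and 0.562% in hypoxia. In each line both hypoxia libraries lay above both normoxia libraries.

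**Figure D1:**
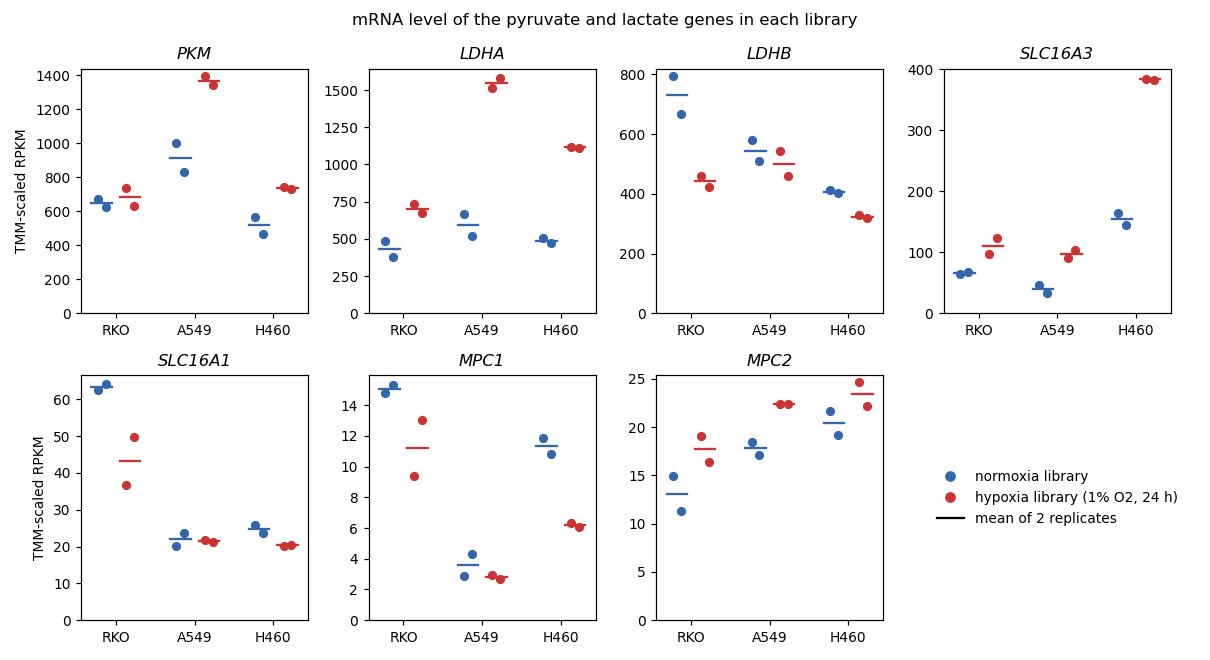
Level of each of the 7 genes (TMM-scaled RPKM, y axes starting at 0) in each library, by cell line on the x axis. Blue points are normoxia libraries, red points are hypoxia libraries (1% O2, 24 h) and bars are means of 2 replicates. LDHA and SLC16A3 hypoxia points lie above the normoxia points in all 3 lines, with LDHA between 1513 and 1584 in hypoxic A549, and LDHB and SLC16A1 points are lowest against normoxia in RKO.

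Calls required a fold change over 1.5 together with a Benjamini-Hochberg adjusted p under 0.1 in edgeR's quasi-likelihood test. In RKO, 2 of the 7 members were called higher (LDHA and SLC16A3) and 2 lower (LDHB and SLC16A1), where 18.8% of all tested genes rose and 15.1% fell by the same rule. In A549, the same 2 were called higher and no member lower, against 2.22% of all tested genes higher and 0.456% lower. In H460, the same 2 were called higher and MPC1 was called lower, against 24.6% and 27.3% of all tested genes. For A549 no member had a lower level at an unadjusted p under 0.05 in edgeR, and DESeq2 also called 0 lower. On average over the 3 lines, 2 members were called higher and 0 lower, against 14.8% and 11.5% of all tested genes. DESeq2 also called 0 lower. The 3 members LDHB, MPC1 and SLC16A1 were lower at an unadjusted p under 0.05 in edgeR. They also passed the adjusted p (0.00158, 0.00271 and 0.0128) but were under the fold minimum. Over all tested genes the median log2 fold change was 0.01 for RKO, -0.01 for A549 and -0.04 for H460. The median SE was 0.22 for A549, 0.18 for RKO and 0.11 for H460, so shares of called genes are not shares of equal precision.

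PKM encodes the M-type pyruvate kinase (ENSG00000067225, GRCh37 chr15:72491370-72523727, minus strand). Its level in RKO was 669 and 625 RPKM in normoxia and 736 and 633 RPKM in hypoxia. The ranges overlapped, and the log2 fold change was 0.02 ± 0.18 (SE; adjusted p = 0.945), with a 95% interval from -0.38 to 0.41. In A549 PKM was at 999 and 831 RPKM in normoxia and at 1393 and 1342 RPKM in hypoxia. Both hypoxia libraries were above both normoxia libraries there, but the log2 fold change of 0.56 ± 0.18 did not pass the test (adjusted p = 0.187). In H460 the values were 566 and 468 RPKM against 740 and 730 RPKM, and the log2 fold change of 0.49 ± 0.11 (adjusted p = 0.00203) was under the fold minimum. By library size alone the H460 change of PKM was 0.14. Without normoxia replicate 1 it was 0.60 and passed it (adjusted p = 0.000606). The average over lines was 0.39 ± 0.09 (adjusted p = 0.0029), also under the minimum. The gene's counts pool its PKM1 and PKM2 splice forms, which differ by a mutually exclusive exon, so a switch between them would not show here.

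LDHA rose in all 3 lines. LDHA encodes the A subunit of lactate dehydrogenase (ENSG00000134333, GRCh37 chr11:18415936-18429765, plus strand). In RKO it was at 488 and 380 RPKM in normoxia and at 734 and 672 RPKM in hypoxia, with a log2 fold change of 0.63 ± 0.19 (adjusted p = 0.0207), 1.55-fold and thus close to the minimum. Without normoxia replicate 2 this RKO change of LDHA was 0.46 and did not pass (adjusted p = 0.264). In A549 LDHA was at 664 and 516 RPKM against 1513 and 1584 RPKM, a log2 fold change of 1.38 ± 0.19 (adjusted p = 0.0127) or 2.60-fold. This A549 call on LDHA was lost in limma on log2 of RPKM with no filter on low values (adjusted p = 0.247). In H460 it was at 505 and 471 RPKM against 1119.9 and 1113 RPKM, a log2 fold change of 1.18 ± 0.10 (adjusted p = 8.35e-07) or 2.26-fold. The normoxia and hypoxia libraries did not overlap in any line, and the average rise was 1.09 ± 0.10 on the log2 scale (adjusted p = 1.33e-06).

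LDHB, the gene of the B subunit (ENSG00000111716, GRCh37 chr12:21788275-21810789, minus strand), went the other way in RKO. There it was at 795 and 667 RPKM in normoxia and at 461 and 423 RPKM in hypoxia, and it fell by 0.79 ± 0.17 on the log2 scale (adjusted p = 0.00502). In A549 LDHB was at 579 and 509 RPKM against 542 and 460.2 RPKM. These ranges overlapped and the log2 fold change was -0.13 ± 0.18 (adjusted p = 0.761). In H460 LDHB stood at 412 and 402 RPKM against 328 and 319 RPKM. Both hypoxia libraries were lower there, but the log2 fold change of -0.35 ± 0.09 (adjusted p = 0.00429) was under the fold minimum on the TMM scale. By library size alone the H460 change of LDHB was -0.70 (adjusted p = 1.33e-05) and passed it. The average over lines, -0.39 ± 0.09 (adjusted p = 0.00158), was under the minimum. The level ratio of LDHA to LDHB within a library does not depend on the scaling. GENCODE lists 6 pseudogenes of LDHA, 3 of LDHB, 5 of PKM and 1 of SLC16A1, none of which has a row in the deposited table, so reads shared with these copies are uncertain.

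The ratio of LDHA to LDHB mRNA was higher in hypoxia in the 3 lines, by factors between 2.69 and 2.88, from different starting points. In RKO it was 0.613 and 0.570 in normoxia and 1.59 in both hypoxia libraries, so LDHB was the more abundant subunit mRNA in normoxia and LDHA in hypoxia. In A549 the ratio was 1.15 and 1.01 in normoxia and 2.79 and 3.44 in hypoxia. In H460 it was 1.23 and 1.17 in normoxia and 3.41 and 3.49 in hypoxia. Expressed as a share of the summed subunit mRNA, LDHA went from 36.3% and 38.0% to 61.4% in RKO, from 50.3% and 53.4% to 73.6% and 77.5% in A549, and from 54.0% and 55.1% to 77.3% and 77.7% in H460. On the log2 scale the ratio changed by 1.52 in each lung line and by 1.43 in RKO. The ratio is a description of chosen genes and was given no test. In RKO both subunits were called, LDHA upward and LDHB downward. In A549 and H460 LDHA was called on the TMM scale, while LDHB in H460 passed the adjusted p alone.

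PKM relative to LDHA showed the opposite course. The PKM to LDHA ratio was 1.37 and 1.64 in RKO normoxia against 1.00 and 0.942 in hypoxia. In A549 it was 1.505 and 1.61 against 0.920 and 0.848, and in H460 it was 1.12 and 0.992 against 0.661 and 0.656. In each line both hypoxia values were below both normoxia values, and the log2 ratio changed by -0.82 in A549, -0.68 in H460 and -0.63 in RKO.

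**Figure D2:**
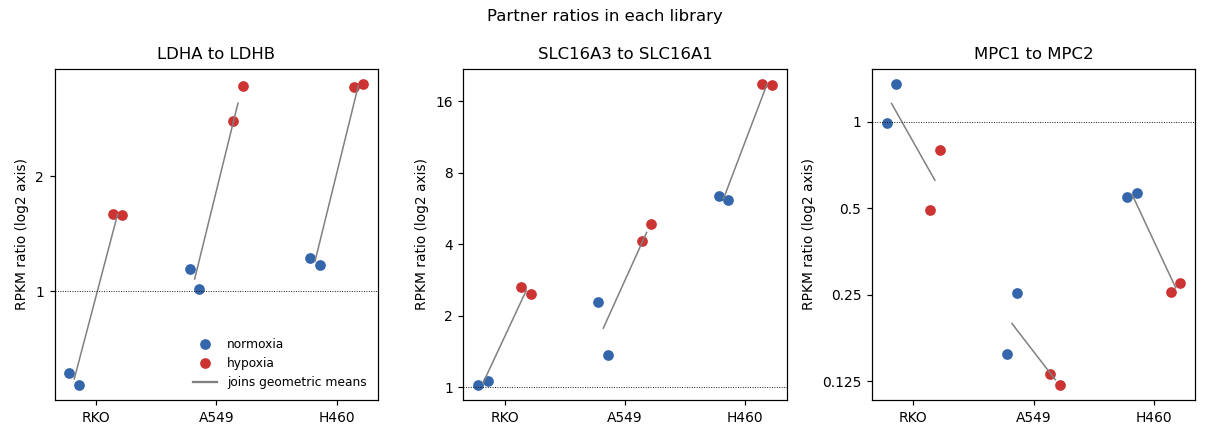
RPKM ratio of LDHA to LDHB, SLC16A3 to SLC16A1 and MPC1 to MPC2 in each library (log2 axes, 1 panel per ratio), by cell line. Blue points are normoxia and red points hypoxia libraries, and grey lines join the geometric means. The LDHA to LDHB ratio passes 1 (dotted) in RKO, from 0.613 and 0.570 to 1.59, and the MPC1 to MPC2 ratio is lower in hypoxia in every line.

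SLC16A3 was the other member that rose in every line. It encodes MCT4, a low-affinity transporter known mainly for lactate export from glycolytic cells (ENSG00000141526, GRCh37 chr17:80186282-80197375, plus strand). In RKO it was at 64.0 and 68.0 RPKM in normoxia and at 97.0 and 123 RPKM in hypoxia, a log2 fold change of 0.68 ± 0.17 (adjusted p = 0.00945) or 1.60-fold. Without hypoxia replicate 2 the RKO change of SLC16A3 was 0.50 (adjusted p = 0.0426), under the fold minimum. In A549 SLC16A3 was at 46.2 and 32.7 RPKM against 90.6 and 103 RPKM, a log2 fold change of 1.28 ± 0.21 (adjusted p = 0.0237). This A549 call on SLC16A3 was lost in limma on log2 of RPKM (adjusted p from 0.115 to 0.251 over its 3 settings). H460 libraries held it at 165 and 144.9 RPKM against 384 and 383 RPKM, a log2 fold change of 1.29 ± 0.10 (adjusted p = 3.28e-07) or 2.45-fold. No normoxia library reached the hypoxia range of its own line, and the average rise was 1.11 ± 0.10 on the log2 scale (adjusted p = 1.48e-06).

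SLC16A1 encodes MCT1, a transporter of higher affinity that works in either direction (ENSG00000155380, GRCh37 chr1:113454470-113498975, minus strand). In RKO it was at 62.7 and 64.3 RPKM in normoxia and at 36.7 and 49.8 RPKM in hypoxia, and it fell by 0.61 ± 0.18 on the log2 scale (adjusted p = 0.0197). The call rested on hypoxia replicate 1: without it the RKO change of SLC16A1 was -0.36 (adjusted p = 0.179). By library size alone it was -0.52 (adjusted p = 0.0479), under the fold minimum. In A549 SLC16A1 was at 20.2 and 23.8 RPKM against 21.9 and 21.3 RPKM. Those ranges overlapped, with a log2 fold change of -0.04 ± 0.17 (adjusted p = 0.929). H460 libraries held it at 25.9 and 23.7 RPKM against 20.3 and 20.4 RPKM, and the log2 fold change of -0.30 ± 0.09 (adjusted p = 0.00809) was under the fold minimum. By library size alone the H460 change of SLC16A1 was -0.65 (adjusted p = 4.53e-05) and passed it. The average over lines was -0.29 ± 0.09 (adjusted p = 0.0128), under the fold minimum.

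SLC16A3 was higher relative to SLC16A1 in hypoxia in each line. The SLC16A3 to SLC16A1 ratio was 1.02 and 1.06 in RKO normoxia against 2.64 and 2.47 in hypoxia. In A549 it was 2.29 and 1.37 against 4.14 and 4.84, and in H460 it was 6.37 and 6.11 against 18.9 and 18.7. RKO thus had near equal mRNA of the pair per length in normoxia, while in H460 SLC16A3 exceeded SLC16A1 already in normoxia. The log2 ratio changed most in H460, by 1.59, against 1.34 in A549 and 1.30 in RKO, and in each line the hypoxia values lay above the normoxia values.

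**Figure D3:**
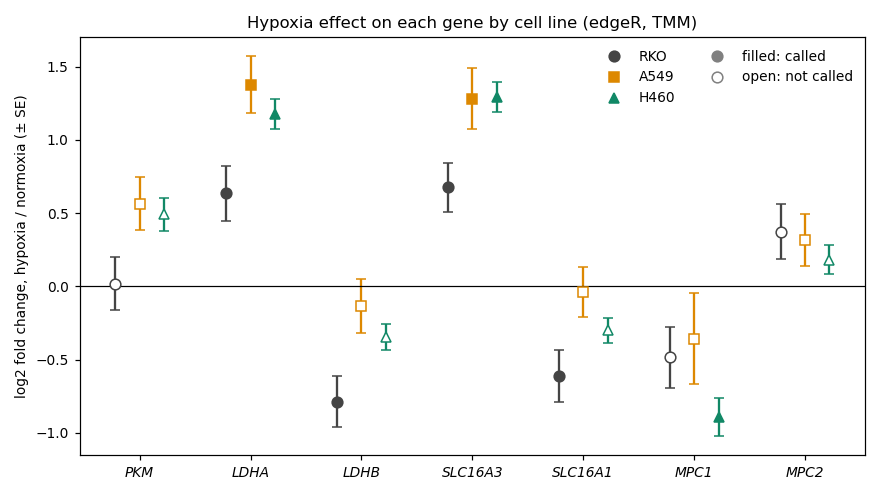
Log2 fold change of hypoxia over normoxia (y axis) for each of the 7 genes (x axis), from separate edgeR fits in RKO (circles), A549 (squares) and H460 (triangles). Bars are ± 1 SE and filled symbols passed the adjusted p and fold thresholds. LDHA runs from 0.63 to 1.38 and SLC16A3 from 0.68 to 1.29, all filled, and MPC1 is filled in H460 at -0.89.

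MPC1 was the least abundant member in A549 and H460, and fell in H460. It encodes a subunit of the mitochondrial pyruvate carrier (ENSG00000060762, GRCh37 chr6:166778408-166796501, minus strand). In H460 it was at 11.9 and 10.8 RPKM in normoxia and at 6.30 and 6.07 RPKM in hypoxia, and it fell by 0.89 ± 0.13 on the log2 scale (adjusted p = 6.81e-05). In RKO it was at 14.8 and 15.3 RPKM against 9.40 and 13.04 RPKM, with hypoxia replicate 1 the lower, and the log2 fold change of -0.48 ± 0.21 (adjusted p = 0.0905) was under the fold minimum. Without hypoxia replicate 2 the RKO change of MPC1 was -0.73 and passed it (adjusted p = 0.00847), and without hypoxia replicate 1 it was -0.22 (adjusted p = 0.430). In A549, where 133 to 252 reads were counted per library, MPC1 was at 2.87 and 4.33 RPKM against 2.95 and 2.71 RPKM, with overlapping ranges and a log2 fold change of -0.36 ± 0.31 (adjusted p = 0.606). The average over lines was -0.55 ± 0.13 (adjusted p = 0.00271), just under the minimum. The average change of MPC1 passed the minimum without RKO hypoxia replicate 2 (-0.63) or without A549 normoxia replicate 1 (-0.64), and it did so by library size alone (-0.70).

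MPC2 encodes the partner subunit (ENSG00000143158, GRCh37 chr1:167885913-167906307, minus strand) and was called in no line. In RKO it was at 15.0 and 11.3 RPKM in normoxia and at 19.1 and 16.4 RPKM in hypoxia, a log2 difference of 0.37 ± 0.19 (adjusted p = 0.134). Without normoxia replicate 1 the RKO difference of MPC2 was 0.60 and was called (adjusted p = 0.0896), and without normoxia replicate 2 it was 0.18 (adjusted p = 0.630). In A549 it was at 18.5 and 17.1 RPKM against 22.4 RPKM in both hypoxia libraries, a log2 difference of 0.32 ± 0.18 (adjusted p = 0.407). In H460 it was at 21.7 and 19.2 RPKM against 24.7 and 22.1 RPKM, a log2 difference of 0.18 ± 0.10 (adjusted p = 0.119), which turned to -0.17 by library size alone. The average over lines was 0.32 ± 0.09 (adjusted p = 0.00914), under the fold minimum. MPC2 overlaps DCAF6 on the opposite strand over 511 bases, and the stranded counting separates the pair. SLC16A1 likewise overlaps AKR7A2P1 on the opposite strand, over 1324 bases. SLC16A3 overlaps MIR6787 on the same strand over 61 bases, where strand does not separate the reads.

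The carrier subunits work as a complex, and MPC1 was lower relative to MPC2 in hypoxia. The MPC1 to MPC2 ratio was 0.988 and 1.36 in RKO normoxia against 0.492 and 0.796 in hypoxia. In A549 it was 0.155 and 0.254 against 0.132 and 0.121, and in H460 it was 0.548 and 0.564 against 0.255 and 0.274. Hypoxia values were below normoxia values in each line, with log2 ratio changes of -0.89, -0.65 and -1.07 in RKO, A549 and H460. MPC2 mRNA exceeded MPC1 mRNA in every A549 and H460 library.

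The lines already differed before hypoxia. At normoxia 3 of the 7 members were called different in RKO against A549, where 60.2% of all tested genes were. In RKO against H460 it was 4 members and 61.9% of genes, and in A549 against H460 3 members and 52.1% of genes. The members' counts are near or below these shares. SLC16A3 differed in each pair: its normoxia mean was 155 ± 14.0 RPKM (SD, n = 2) in H460, 66.0 ± 2.83 in RKO and 39.5 ± 9.59 in A549. On the log2 scale A549 minus H460 was -1.97 ± 0.18 for SLC16A3 (adjusted p = 3.48e-07), and RKO minus H460 was -1.23 ± 0.18 (adjusted p = 2.19e-05). RKO minus A549 was 0.74 ± 0.17 for SLC16A3 (adjusted p = 0.00165), which was 0.51 and under the fold minimum without A549 normoxia replicate 2.

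SLC16A1 was higher in RKO than in the lung lines. Its normoxia mean was 63.5 ± 1.14 RPKM in RKO, 24.8 ± 1.52 in H460 and 22.005 ± 2.54 in A549. RKO exceeded A549 by 1.53 ± 0.15 on the log2 scale (adjusted p = 6.24e-07) and H460 by 1.36 ± 0.15 (adjusted p = 2.02e-06), while A549 and H460 did not differ beyond their spread (-0.17 ± 0.15, adjusted p = 0.345).

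MPC1 was low in A549, at a normoxia mean of 3.60 ± 1.03 RPKM against 15.0 ± 0.368 in RKO and 11.4 ± 0.744 in H460. RKO minus A549 was 2.06 ± 0.23 (adjusted p = 1.68e-06) and A549 minus H460 was -1.66 ± 0.23 (adjusted p = 2.2e-05). RKO and H460, the neighbours in this order, did not pass the test for MPC1 (0.41 ± 0.22, adjusted p = 0.109).

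PKM differed between A549 and H460, by 0.82 ± 0.16 on the log2 scale (adjusted p = 0.00052), with RKO between them. LDHB was highest in RKO, with RKO minus H460 at 0.85 ± 0.15 (adjusted p = 0.000149), while the difference between RKO and A549 of 0.43 ± 0.15 (adjusted p = 0.0195) was under the fold minimum. MPC2 was lower in RKO than in H460, at -0.64 ± 0.16 (adjusted p = 0.00247), and this difference of MPC2 was under the fold minimum without RKO normoxia replicate 2 (-0.46) or without H460 normoxia replicate 1 (-0.55). LDHA was the member whose normoxia level was called different in no pair of lines. Its normoxia means were 434 ± 76.3 RPKM in RKO, 589.97 ± 104 in A549 and 488 ± 23.6 in H460, and the LDHA difference between RKO and A549 was -0.44 (adjusted p = 0.0302), under the fold minimum. This difference of LDHA was over the fold minimum without RKO normoxia replicate 1 (-0.65) or without A549 normoxia replicate 2 (-0.62).

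Differences in the hypoxia effect between lines were tested as interaction terms in the fit of all 12 libraries, with the adjusted p alone as the threshold. Between RKO and A549, 2 of the 7 members differed, against 14.6% of all tested genes. LDHA rose less in RKO than in A549, by -0.70 ± 0.24 on the log2 scale (adjusted p = 0.0848), and the same term for LDHB was -0.61 ± 0.21 (adjusted p = 0.0879). Between RKO and H460, 1 member differed, against 37.6% of all tested genes: SLC16A3 rose less in RKO, by -0.57 ± 0.24 (adjusted p = 0.0931). Between A549 and H460, 0 members differed in edgeR or DESeq2, against 36% of all tested genes, and 0 members had an unadjusted p under 0.05. All 3 differences were near the threshold: the call was lost in 6 of 8 fits without a single library for LDHA, in 5 of 8 for LDHB and in 7 of 8 for SLC16A3, which by library size alone was at -0.18 (adjusted p = 0.626). Since all pairs reuse the same libraries, these interactions are not separate observations. For PKM the RKO minus A549 term was -0.50 ± 0.23 (adjusted p = 0.189), and for SLC16A1 it was -0.53 ± 0.21 (adjusted p = 0.139).

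The genes around the members were read from 4 lists. The first held 13 relatives and partners of the members, of which 4 were tested. LDHD, the mitochondrial dehydrogenase of D-lactate, was at 0.359 and 0.242 RPKM in RKO normoxia and at 4.38 and 2.92 RPKM in hypoxia, a log2 fold change of 3.54 ± 0.36 (adjusted p = 0.000122). LDHD also rose in H460, by 1.38 ± 0.15 (adjusted p = 5.61e-06), and did not pass in A549 (0.61, adjusted p = 0.349). BSG, or basigin, the chaperone that brings MCT1 and MCT4 to the membrane, was at 297 and 238 RPKM in H460 normoxia and at 535 and 495 RPKM in hypoxia, a log2 fold change of 0.93 ± 0.12 (adjusted p = 1.83e-05). By library size alone the call on BSG was lost. EMB, or embigin, another such chaperone, fell by 1.31 ± 0.13 in H460 (adjusted p = 3.4e-06). SLC16A7, or MCT2, was called in no line. In H460 SLC16A7 was at -0.38 and passed the adjusted p (0.00265) but was under the fold minimum. The remaining relatives were at or near 0. LDHAL6A, MPC1L and SLC5A8 had 0 reads in every library. For a single library, 0 reads allows an expected count of up to about 3 at 95% confidence. PKLR, LDHC, LDHAL6B, SLC16A8, SLC5A12 and the lactate receptor gene HCAR1 were below the filter.

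The second list held 17 genes of the other fates of pyruvate, namely pyruvate dehydrogenase with its kinases and phosphatases, pyruvate carboxylase, alanine aminotransferases and malic enzymes. In RKO 3 of 16 tested were higher and 2 lower, in A549 3 of 17 were higher and 1 lower, and in H460 7 of 16 were higher and 3 lower. Over all tested genes the shares were 18.8% higher and 15.1% lower in RKO, close to the list's, 2.22% and 0.456% in A549, and 24.6% and 27.3% in H460. The list medians of the log2 fold change were 0.05, -0.11 and 0.13. PDK1, a kinase that inhibits pyruvate dehydrogenase, was higher in each line, with a log2 fold change of 1.52 ± 0.09 for H460 (adjusted p = 5.91e-08), 1.60 ± 0.20 for RKO (adjusted p = 0.000314) and 1.73 ± 0.24 for A549 (adjusted p = 0.0114). PDK3, a related kinase, rose as well, with log2 fold changes of 3.003 in H460, 1.74 in A549 and 1.29 in RKO. PDK4 fell in A549, from 18.7 and 16.3 RPKM to 3.72 and 3.39 RPKM, and rose in H460, from 18.7 and 14.4 RPKM to 37.3 and 44.005 RPKM. PDK2 fell in H460, where it was below 1 RPKM in every library.

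The phosphatase gene PDP1, whose product reactivates pyruvate dehydrogenase, rose in RKO (2.02 ± 0.22, adjusted p = 0.000165) and in H460 (1.27 ± 0.13, adjusted p = 2.7e-06), and PDP2 rose in H460 (1.23). DLAT, the acetyltransferase subunit of the complex, fell in RKO by 1.02 ± 0.17 (adjusted p = 0.00129) and in H460 by 1.27 ± 0.10 (adjusted p = 2.92e-07). PDHX, which binds another subunit into the complex, rose in H460 by 0.63, a call that was lost by library size alone and without normoxia replicate 1. PC, the carboxylase that makes oxaloacetate from pyruvate, rose in A549 by 1.15 ± 0.28 (adjusted p = 0.0931), from 11.8 and 11.7 RPKM to 17.9 and 34.9 RPKM, and the call on PC was lost by library size alone and without hypoxia replicate 2 or either normoxia replicate. GPT2, which makes alanine from pyruvate, rose in H460 by 0.78, also not by library size alone. The malic enzyme genes ME1 in H460 (-0.71) and ME2 in RKO (-0.76) fell.

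The third list held 5 splicing factors that act on the exon choice of PKM. In RKO 3 of 5 fell, in H460 2 of 5 fell and in A549 0 passed in either direction, and 0 of the 5 had an unadjusted p under 0.05 there in edgeR. Of all tested genes 15.1% fell in RKO, 27.3% in H460 and 0.456% in A549. The medians were -0.63, -0.04 and -0.12 in the order RKO, H460 and A549. SRSF3 fell by 1.51 ± 0.22 in RKO (adjusted p = 0.000604) and by 0.67 ± 0.09 in H460 (adjusted p = 2.98e-05). HNRNPA2B1 fell by 0.89 ± 0.17 in RKO (adjusted p = 0.00243) and by 1.17 ± 0.10 in H460 (adjusted p = 7.86e-07). HNRNPA1 fell by 0.63 in RKO (adjusted p = 0.0096), a call lost by library size alone and without hypoxia replicate 2 or normoxia replicate 1. PTBP1 was at -0.48, -0.12 and -0.04 in RKO, A549 and H460 and was called in none. In RKO PTBP1 passed the adjusted p (0.0415) but was under the fold minimum.

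The fourth list held 8 genes of the glycolytic steps from aldolase to enolase, just upstream of PKM. In RKO 4 of 8 rose, in A549 5 and in H460 7, against 18.8%, 2.22% and 24.6% of all tested genes, with list medians of 0.79, 0.87 and 1.82. ALDOA, ALDOC, PGK1 and ENO2 rose in all 3 lines. PGK1, phosphoglycerate kinase, changed by 2.55 ± 0.12 in H460, 1.86 ± 0.20 in A549 and 1.85 ± 0.21 in RKO. ENO2, the enolase best known from neurons, rose by 5.13 in H460, 2.41 in RKO and 2.20 in A549. ENO1, the common enolase, was at 0.51, -0.10 and 0.40 in the same order and was called in none. In H460 ENO1 passed the adjusted p (0.000929) but was under the fold minimum. GAPDH, PGAM1 and HNRNPA1 are known to have many processed copies in the genome, so their counts are uncertain. TPI1 rose in A549 (0.79) and H460 (1.51), and GAPDH (2.12) and PGAM1 (0.84) rose in H460. PKM, whose product follows enolase in the pathway, was at 0.02, 0.56 and 0.49 in RKO, A549 and H460. The A549 call on TPI1 was lost by library size alone and without normoxia replicate 1, normoxia replicate 2 or hypoxia replicate 2, the A549 call on ALDOA (0.95) without normoxia replicate 2, and the H460 call on PGAM1 by library size alone.

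**Figure D4:**
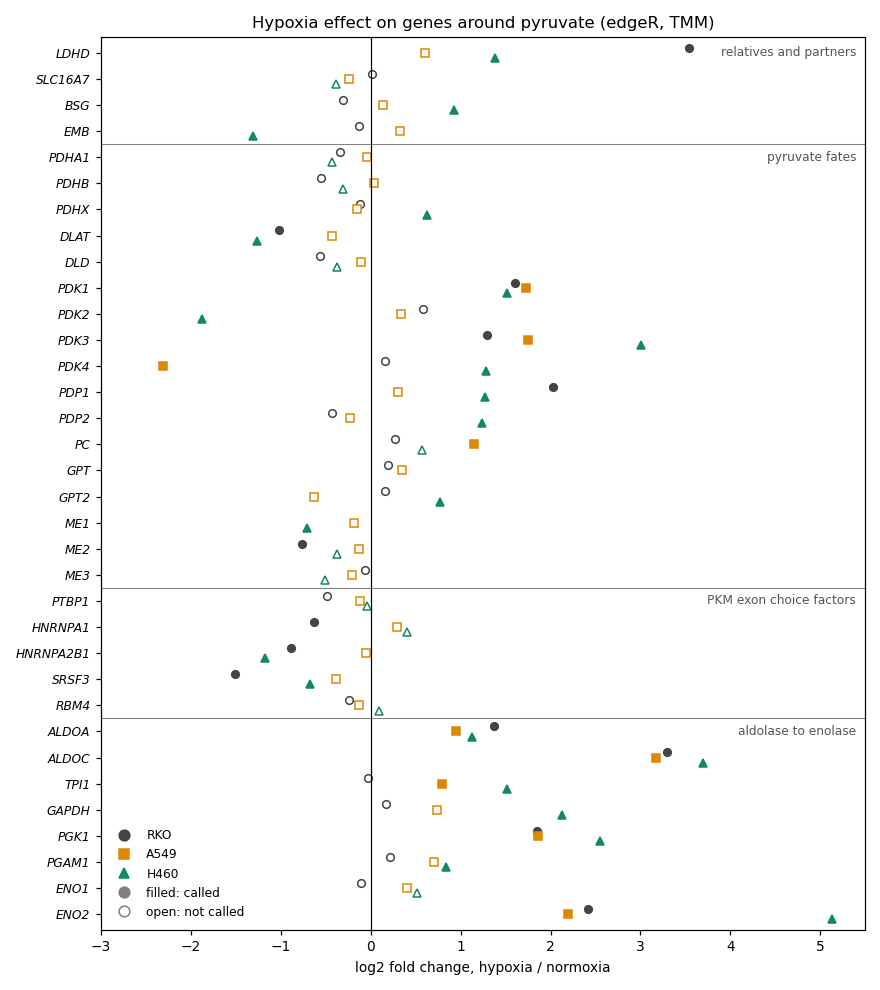
Log2 fold change of hypoxia over normoxia (x axis) of the tested genes in the 4 lists (rows), in RKO (circles), A549 (squares) and H460 (triangles). Filled symbols passed the adjusted p and fold thresholds of edgeR and open ones did not. PDK1, PDK3, ALDOA, ALDOC, PGK1 and ENO2 are filled to the right of 0 in all 3 lines, and ENO2 in H460 reaches 5.13.

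For the members called in at least 2 lines, the genes with the most similar response were sought by the root mean square difference of the 3 log2 fold changes, among 11138 genes tested in every line. Nearest to LDHA were HEY1 (0.67, 1.34 and 1.26 in RKO, A549 and H460, at a distance of 0.056), SLC16A3 (distance 0.0895) and MYO1D (0.65, 1.54 and 1.06, at a distance of 0.116). Nearest to SLC16A3 were HEY1 (distance 0.0403), LDHA and TMEM158 (0.92, 1.41 and 1.38, at a distance of 0.164). Within a distance of 0.25 there were 10 genes around LDHA and 13 around SLC16A3. The measure rests on 3 lines and describes likeness of size only.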

How the data were processed

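The 12 libraries were single-end, strand-specific poly(A)+ RNA-seq. According to the sample records and the study's methods, the authors aligned reads to GRCh37/hg19 with TopHat2 2.0.13, discarded poorly mapped reads, flagged duplicates with Picard 1.129 and counted exon reads per gene with HTSeq 0.6.1. The authors deposited a raw count and an RPKM for each of 25369 genes and library, with gene length and position. The deposited RPKM equals the count divided by gene length and by the library's summed counts, up to a constant factor. Reads matching several places were lost or shared upstream. All files' sample columns were used.

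The quasi-likelihood F test of edgeR (version 4.0.16, run under R 4.3.3) was applied to counts with TMM factors (genes over 0.5 CPM in at least 2 libraries). Per-line fits used the 4 libraries of that line; averages, interactions and normoxia levels came from a joint fit of all 12. Adjusted p values are Benjamini-Hochberg values over all tested genes, the call needed an adjusted p under 0.1 and a fold over 1.5 (interactions the adjusted p alone), and errors of log2 fold changes are SE. Starts were converted to 1-based positions. Depth was 27350424 to 41757584 counts, and with 2 replicates p-values measure the spread between these samples only.

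Alternatives were DESeq2 1.42.0, RLE factors, library size only, 2 other filters, a replicate block, a joint fit, other thresholds, leaving out each replicate, and limma 3.58.1 on log2 of the deposited RPKM plus 0.1 or 1. The statistics were tested on simulated data. The genes named are the 7 members, list genes called in at least 1 line or not measured, and the 3 genes most similar in response to each member called in 2 or more lines (mean of at least 100 counts). The members and gene lists were chosen with earlier results of these data known.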

Additional observations from a re-analysis of the deposited data

Results flagged for a closer look

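The hypoxia effect differed between lines for 3 members in the test of the difference itself, the interaction term of edgeR over all 12 libraries. The difference of RKO minus A549 was -0.70 ± 0.24 on the log2 scale for LDHA (adjusted p = 0.0848), whose effect was 0.63 in RKO and 1.38 in A549. For LDHB the same difference was -0.61 ± 0.21 (adjusted p = 0.0879), with effects of -0.79 and -0.13. For SLC16A3 the difference of RKO minus H460 was -0.57 ± 0.24 (adjusted p = 0.0931), with effects of 0.68 and 1.29. The LDHA difference was lost in 6 of the 8 fits that left out a library, with values from -0.89 to -0.50. The LDHB difference was lost in 5 of 8, with values from -0.73 to -0.47. The SLC16A3 difference was lost in 7 of 8, with values from -0.73 to -0.41, and by library size alone it was -0.18 (adjusted p = 0.626).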

How the results depend on the processing

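Depth was ample for all members but MPC1 in A549, and the number of replicates limited precision. LDHA and SLC16A3 kept their direction in each line and on average under every alternative, and their calls in H460 and on average held throughout. In A549 limma on log2 RPKM ended the SLC16A3 call in all 3 settings and the LDHA call without a filter. The replicate numbers are not stated to pair samples: deviations of same-numbered libraries correlated at 0.229 in RKO, 0.290 in A549 and 0.080 in H460, and the replicate block changed no member call within a line or on average, while over all genes in A549 it gave 1189 higher and 723 lower calls against 316 and 65. At normoxia the block put SLC16A3 between RKO and A549 (0.57) and MPC2 between RKO and H460 (-0.58) under the fold minimum. With the block 5 members differed between RKO and A549 and 4 between RKO and H460.

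Counts of members moved as follows. In RKO, lower calls (2) were 1 by library size only, in all 3 limma settings and in the joint fit, and 0 with a fold over 2, while higher calls (2) were 0 with a fold over 2. Leaving out a library gave 1 to 3 for both. In A549, higher calls (2) were 1, 1 and 0 in the limma settings with 0.1, with 1 and with no filter. In H460, lower calls (1) were 3 by library size only, in the 3 limma settings and with no minimum fold, and 0 with a fold over 2. On average, higher calls (2) were 4 with no minimum fold, and lower calls (0) were 1 by library size only and with limma, 3 with no minimum fold and 0 to 1 without a library. Interactions between RKO and A549 (2) were 4 with DESeq2, 1 by library size only and with filterByExpr, 1, 1 and 0 with limma, 0 at an adjusted p of 0.05 and 0 to 3 without a library. Interactions between RKO and H460 (1) were 4 with DESeq2, 2 by library size only and with limma, 0 at 0.05 and 0 to 1 without a library. Interactions between A549 and H460 (0) were 2 by library size only, 3, 3 and 1 with limma and 0 to 1 without a library. Normoxia differences between RKO and A549 (3) were 7 with no minimum fold and 3 to 5 without a library, and those between RKO and H460 (4) were 2 with a fold over 2.

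Signs reversed for differences that were not called. PKM in RKO ranged from -0.042 to 0.13 without a library, and SLC16A1 in A549 from -0.15 to 0.077. MPC2 in H460 was -0.17 by library size only and -0.17, -0.16 and -0.17 with limma. For MPC1, RKO minus A549 was 0.058 by library size only and -0.40 to 0.19 without a library. For SLC16A1, RKO minus H460 was 0.13 by library size only and 0.10, 0.082 and 0.10 with limma. For SLC16A3, A549 minus H460 was 0.25 by library size only, 0.0028 with the replicate block, 0.26, 0.25 and 0.26 with limma and -0.24 to 0.26 without a library. For MPC2, RKO minus A549 ranged from -0.087 to 0.33 without a library, and for PKM, A549 minus H460 from -0.066 to 0.21. The library-size and limma values share the scale without TMM factors, and the other causes were not tested. Of the member values under alternatives, 1172 kept side and direction, 57 lost the call, 68 gained it and 26 changed sign.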
